A study of Bos taurus with 20 samples.

Results

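PARP9, PARP10 and PARP12 belong to the family of ADP-ribosyltransferases. All clones of the pregnancy-enriched array that carry 1 of these symbols alone in the platform's gene table were taken, whatever their values. They are 7 of the 1536 clones of this array, 1 of PARP9, 1 of PARP10 and 5 of PARP12, and 3 of its 86 named genes. The 3 genes themselves were chosen with earlier results of these data known. The samples were endometrium between the caruncles, from the caudal part of the ipsilateral uterine horn, taken on day 18 from Simmental heifers aged 17 to 22 months. All heifers were cycle-synchronised with cloprostenol. The 4 pregnant heifers had been inseminated with sperm of 1 bull, and a conceptus was found and removed, while the 6 cyclic controls had received the sperm-free supernatant of the semen of that bull and had no conceptus. Each animal gave 1 RNA, labelled with phosphorus-33 and hybridised to the array, called 18KB, whose clones come from a cDNA library enriched for transcripts more abundant in pregnant animals; 0 clones of the companion 18KO array carry a symbol of these genes.

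Enzymes of this family transfer ADP-ribose from NAD to proteins, and most members, including PARP10 and PARP12, attach single units rather than chains. PARP9 carries macrodomains, which bind ADP-ribose, and works in a complex with the ubiquitin ligase DTX3L. PARP10 was first described as a partner of the transcription factor MYC, and PARP12 has zinc fingers of the CCCH type and restrains the replication of several RNA viruses. All 3 are known as genes induced by interferons, and the bovine conceptus secretes an interferon of type I, interferon tau, by which the mother recognises pregnancy before attachment.

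The comparison asked whether these genes differed between pregnant and control endometrium. All 3 were higher in each of the 4 pregnant animals than in any of the 6 controls, as were 22.3% of the 1420 genes and unnamed clones compared, and their means rose by 6.95-fold for PARP12, 4.71-fold for PARP9 and 3.68-fold for PARP10. The 7 clones rose as well, and 7 were called, which took at least a 2-fold change with limma and p below 0.01 after adjustment. That rule called 20.5% of all clones of this array higher in pregnant animals, and 15.6% of the 1420 rows in which clones of 1 gene were averaged. The library was made, and its clones were sequenced, to find such differences in these animals, and of the 83 other named genes 77.1% were called higher, so 3 of 3 is not a finding about this family. In bulk tissue, more cells of a type and more RNA per cell cannot be told apart.

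Values below are spot intensities in arbitrary units or their log2, and the number of animals limits their precision. Column medians ran from 2.50 to 3.18 in pregnant animals and from 1.39 to 1.90 in controls, and the columns were used as deposited. Over all clones the log2 fold change had a median of 0.44, and of -0.39 when each column was given the same median, which took 0.83 off every change. Log2 columns of 1 group correlated at 0.935 to 0.982. Readings of 0.01 or less numbered 9 to 16 in a column, except that pregnant 426, pregnant 447 and control 427 had 0.

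PARP9, the macrodomain protein, had intensities of 2.50, 2.84, 3.15 and 1.88 in pregnant heifers 316, 426, 447 and 448. Its clone, 18KB-08-A09, read 0.59 in control 330, 0.62 in 404, 0.92 in 427, 0.41 in 434, 0.43 in 440 and 0.42 in 449. The groups did not overlap, and the lowest pregnant value was 2.04 times the highest control. The mean log2 level was -0.89 ± 0.46 (SD, n = 6) in controls and 1.35 ± 0.32 (SD, n = 4) in pregnant heifers. The log2 fold change was 2.24 ± 0.26 (SE, limma adjusted p = 7.61e-05), with a 95% interval of the fold from 3.20 to 6.94. In the RefSeq annotation of assembly ARS-UCD2.0 the PARP9 gene overlaps that of its partner DTX3L. The labelled cDNA was double-stranded, per the labels, so the signal carries no strand, and DTX3L has no named clone on the array.

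PARP10, a transferase of single ADP-ribose units, showed the smallest change of the 3 and the narrowest gap between the groups. Its clone, 18KB-10-G08, had intensities of 2.30, 2.37, 3.74 and 1.72 in pregnant 316, 426, 447 and 448. In controls 330, 404, 427, 434, 440 and 449 it read 0.68, 0.84, 1.35, 0.54, 0.49 and 0.41. Pregnant 448 was thus 1.27 times as high as control 427, the nearest pair of the groups. The means were 1.28 ± 0.46 (SD, n = 4) and -0.60 ± 0.62 (SD, n = 6) on the log2 scale. The log2 fold change was 1.88 ± 0.33 (SE, limma adjusted p = 0.00123), and the 95% interval of the fold ran from 2.23 to 6.06.

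PARP12, the zinc finger member, changed most of the 3 when its 5 clones were averaged. With the median of the clones in their place its change was 4.47-fold, below the 4.71-fold of PARP9, and with the brightest clone alone 11.4-fold. The geometric mean intensity of its 5 clones was 6.74, 7.09, 7.77 and 4.90 in pregnant 316, 426, 447 and 448. In the controls it was 0.993 in 330, 0.829 in 404, 1.69 in 427, 0.938 in 434, 0.769 in 440 and 0.685 in 449. Every pregnant animal exceeded the highest control by at least 1.53 on the log2 scale. On the log2 scale, controls averaged -0.09 ± 0.46 (SD, n = 6) and pregnant heifers 2.71 ± 0.29 (SD, n = 4). The log2 fold change was 2.80 ± 0.25 (SE, limma adjusted p = 3.22e-05), with a 95% interval of the fold from 4.75 to 10.2.

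**Figure D1:**
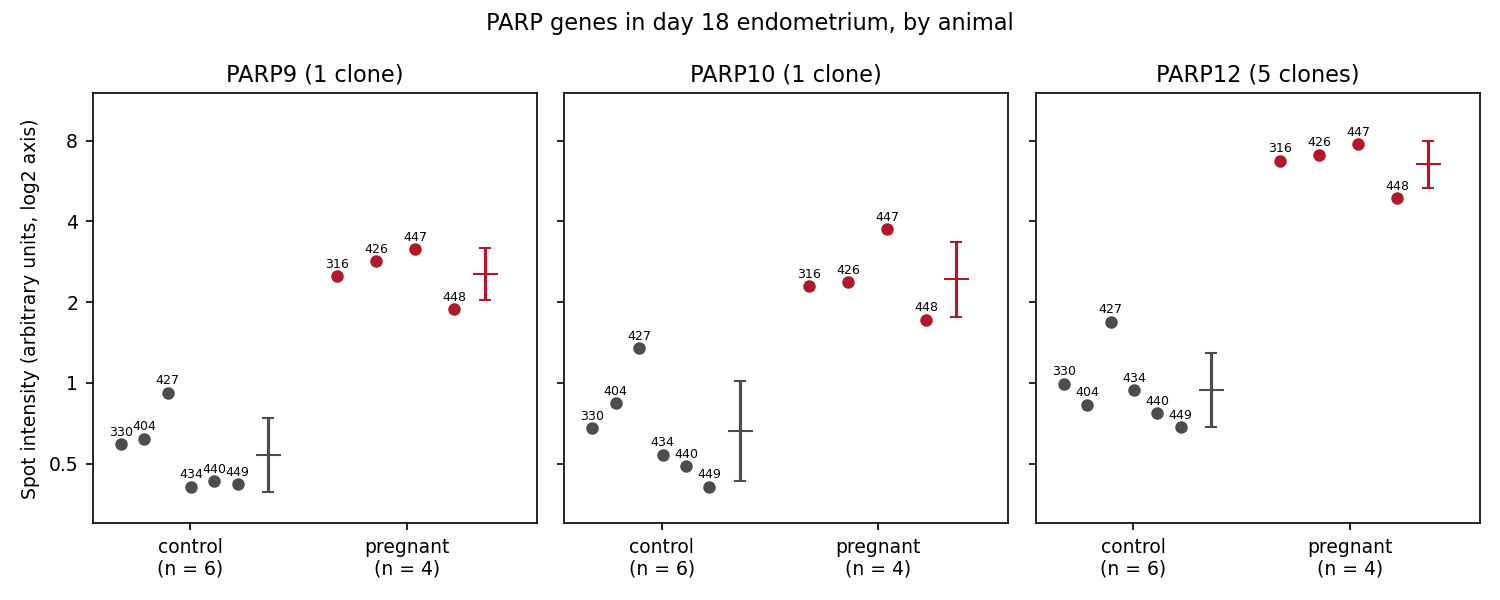
Spot intensity (arbitrary units, log2 axis) of PARP9, PARP10 and PARP12 in each animal, labelled with its number; PARP12 is the geometric mean of 5 clones, and the bars beside the points give the mean and SD of the log2 values. All 4 pregnant animals lie above all 6 controls in each panel, with control 427 the highest control and pregnant 448 the lowest pregnant animal; levels cannot be compared between panels, since they come from different clones.

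The size of these changes depended on the scale of the columns. With equal column medians the folds were 2.65 for PARP9, 2.07 for PARP10 and 3.91 for PARP12, and after quantile normalization 2.67, 2.10 and 4.03. All 3 genes were called under both, and 6 of the 7 clones (limma adjusted p = 0.00607 for PARP10 with equal medians, the highest over its alternatives). Of all 1420 rows, 254 were called in either direction with equal medians and 239 after quantile normalization, against 230 as deposited. With a factor per animal from both arrays the folds were 4.01, 3.13 and 5.92.

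A rank within the array depends on no scaling factor. The clone of PARP9 lay between percentiles 42.6 and 50.2 of all clones in pregnant animals and between 20.6 and 30.2 in controls. That of PARP10 ranged from percentile 40.3 to 54.1 in pregnant animals and from 21.6 to 40.8 in controls, so that control 427 ranked just above pregnant 448. The groups were apart by rank for 5 of the 7 clones, the exceptions being that of PARP10 and the PARP12 clone 18KB-14-B09. By rank 13.5% of all clones of the array were apart with pregnant animals higher, and by intensity 26.7%.

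The 5 clones of PARP12 changed in the same direction by unequal amounts. Clones of 1 gene share their target and are no replicates, and the part of the transcript that each covers is not stated in the labels or tables used. Clone 18KB-08-H09 had intensities of 21.73, 29.22, 23.18 and 12.71 in pregnant 316, 426, 447 and 448 against 1.15 to 3.64 in controls (median 1.83), a log2 fold change of 3.51 ± 0.33. Clone 18KB-03-D01 read 11.97, 10.57, 13.28 and 7.97 in the same animals against 0.79 to 1.82 (median 1.15), and rose by 3.20 ± 0.25. In clone 18KB-07-D07 the pregnant values were 3.72, 3.02, 3.98 and 2.65 and the control values 0.23 to 0.77 (median 0.32), for a change of 3.22 ± 0.30. These 3 clones rose between 9.18-fold and 11.4-fold.

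The other two PARP12 clones rose less. Clone 18KB-07-B07 read 4.26, 3.26, 4.44 and 3.60 in pregnant 316, 426, 447 and 448 and 0.66 to 1.15 (median 0.805) in controls, a log2 fold change of 2.20 ± 0.20. Clone 18KB-14-B09 read 3.38, 5.89, 5.20 and 2.91 against 0.70 to 2.38 (median 1.17), and changed by 1.85 ± 0.36 (limma adjusted p = 0.002). Control 427 was again the highest control in both, and in the second the lowest pregnant value was 1.22 times its level. With equal column medians that clone was the only one of the 7 not called (1.02, adjusted p = 0.0153), and likewise after quantile normalization (1.06, adjusted p = 0.0143).

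**Figure D2:**
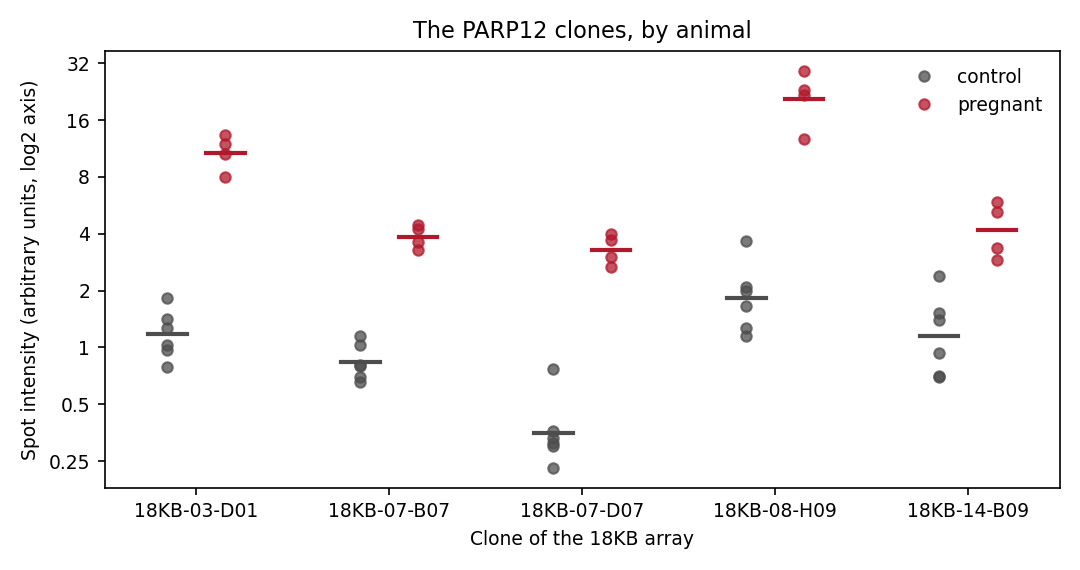
Spot intensity (arbitrary units, log2 axis) of the 5 PARP12 clones, with 1 point per animal (grey, 6 controls; red, 4 pregnant) and a line at the geometric mean of each group. The groups are apart in every clone, narrowly so in 18KB-14-B09, where control 427 reads 2.38 and pregnant 448 reads 2.91.

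Differences between clones on 1 array are free of any factor that scales its column. For each of the 10 pairs of PARP12 clones, the log2 difference within the array was compared between pregnant and control animals by a two-sided exact permutation test over all 210 splits, a step added after the data were seen. The 6 pairs that set 18KB-03-D01, 18KB-07-D07 or 18KB-08-H09 against 18KB-07-B07 or 18KB-14-B09 differed in their change by 1.00 to 1.66 in size on the log2 scale, each with an adjusted p of 0.0238 over the 10 pairs. The other 4 pairs differed by 0.02 to 0.34 in size, with adjusted p from 0.306 to 0.89. Leaving out single animals gave 5 or 6 pairs past an adjusted p of 0.05, and a pseudocount gave 8.

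**Figure D3:**
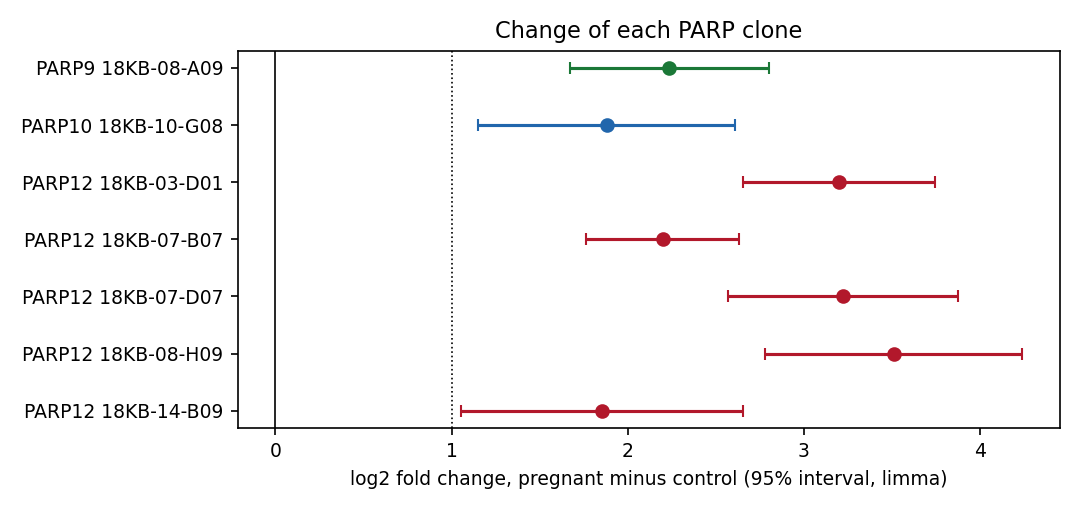
Log2 fold change, pregnant minus control, of the 7 PARP clones with its 95% interval from limma; the dotted line marks a 2-fold change. All intervals lie above that line, and the PARP12 clones 18KB-03-D01, 18KB-07-D07 and 18KB-08-H09 lie at 3.20 to 3.51 while 18KB-07-B07 and 18KB-14-B09 lie at 2.20 and 1.85, beside PARP9 and PARP10.

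The same kind of comparison asked whether the 3 genes rose by unequal amounts. The log2 difference of PARP12 and PARP10 was 1.55, 1.58, 1.06 and 1.51 in pregnant 316, 426, 447 and 448, against -0.02 to 0.80 in controls. PARP12 thus rose by 0.92 more than PARP10 (two-sided exact permutation p = 0.00476, the smallest that 210 splits can give, adjusted p = 0.0143 over the 3 pairs). In both pairs with PARP12 all pregnant values lay above all control values.

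PARP12 also rose by 0.56 more than PARP9, with within-array differences of 1.30 to 1.43 in pregnant animals and 0.42 to 1.19 in controls (exact permutation p = 0.00952, adjusted p = 0.0143). PARP10 minus PARP9 was -0.12, -0.26, 0.25 and -0.13 in pregnant 316, 426, 447 and 448 and ran from -0.03 to 0.55 in controls, so the groups overlapped. The change of the PARP10 clone was smaller than that of the PARP9 clone by 0.36 (-0.36, exact permutation p = 0.0333, adjusted p = 0.0333). Each of these genes has 1 clone, while the 5 clones of PARP12 differed in their change by up to 1.66. The permutation was over animals and does not measure that spread between clones. In all 3 pairs, a difference between genes thus cannot be told from a difference between clones.

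Both pairs with PARP12 depended on how its clones were joined. With the median of the 5 clones in each animal in place of their mean, PARP12 changed by 2.16, and its difference from PARP9 was -0.076 (exact permutation, adjusted p = 0.776) and from PARP10 0.28 (adjusted p = 0.557). With its brightest clone alone PARP12 changed by 3.51, and the differences were 1.28 and 1.63. The difference of PARP10 and PARP9 lost its call without any 1 of pregnant 316, 426 or 448 or controls 404, 427 or 434 (-0.29 to -0.34).

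**Figure D4:**
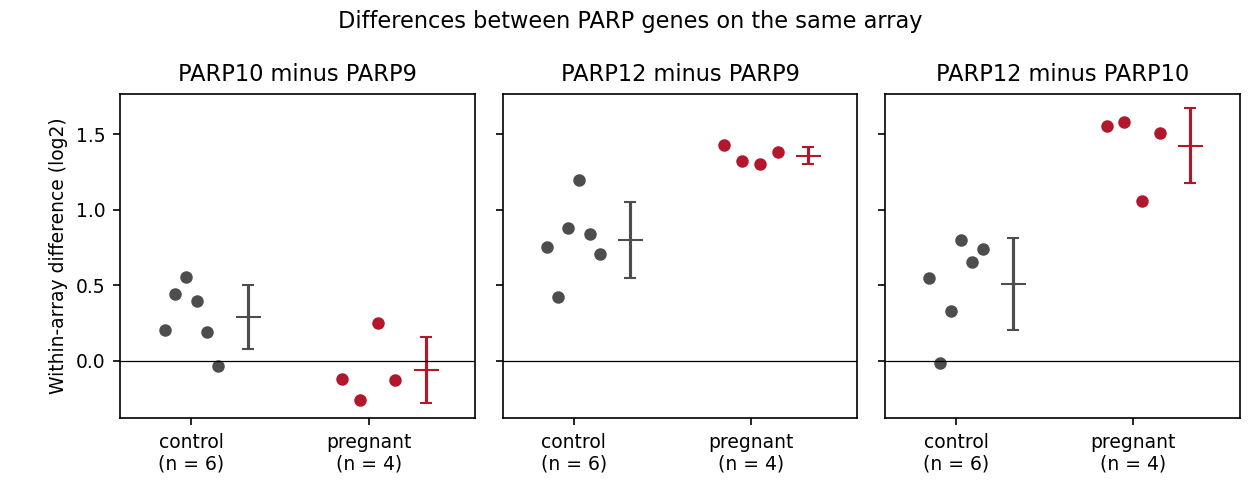
Difference of log2 level between a pair of PARP genes on the same array, 1 point per animal, with the mean and SD of each group beside the points. Pregnant animals lie above all controls for PARP12 minus PARP9 (1.30 to 1.43 against 0.42 to 1.19) and PARP12 minus PARP10, and overlap them for PARP10 minus PARP9.

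The same animals were highest or lowest in most clones. Control 427 was the highest control in 7 of the 7 clones, and exceeded the mean of the other controls by 0.92 in PARP9, 1.24 in PARP10 and 1.02 in PARP12 on the log2 scale. Pregnant 448 was the lowest pregnant animal in 6 of the 7 clones, lying below the mean of the others by 0.58 in PARP9 (-0.58), 0.67 in PARP10 (-0.67) and 0.55 in PARP12 (-0.55). Pregnant 447 was the highest in 5 clones and 426 in the other 2. Control 427 (1.90) and pregnant 447 (3.18) also had the highest column medians of their groups, while pregnant 448 (2.71) lay above pregnant 316 (2.50). How often these animals were highest or lowest over all clones is not given here. Without control 427 the log2 fold changes were 2.39, 2.09 and 2.97 for PARP9, PARP10 and PARP12. The 3 arrays that hold no reading of 0.01 or less are those of pregnant 426, pregnant 447 and control 427. With a block for these arrays, added once the data had been seen, the log2 fold changes were 2.01, 1.59 and 2.58, all called.

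Of 96 symbols listed for other interferon-stimulated genes, a few of them aliases of another, 24 were named on the array. All 24 were called higher, as were 64 of the 83 named genes other than the 3 PARP genes, which include these 24. The list was chosen with earlier results of these data known, so this count is no independent support. Of the 83, 9 were called lower and 10 were not called. All pregnant values lay above all control values in the 24 genes, in 62 of the 83 and in 316 of all 1420 rows. Their log2 fold change had a median of 2.50 and a range from 1.11 to 4.85, against a median of 1.83 over the 83 named genes and of 0.38 over all rows. The members with the smallest p were IFI6, a membrane protein (2.44 ± 0.21), ISG15, a ubiquitin-like modifier (4.85 ± 0.46), UBA7, its activating enzyme (4.20 ± 0.41), and LY6E, a surface protein (2.26 ± 0.23). In the order of the 27 genes PARP12, by the mean of its clones, stood at place 9, PARP9 at 17 and PARP10 at 22. With equal column medians 19 of the 24 were called, and 254 of all 1420 rows in either direction.

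**Figure D5:**
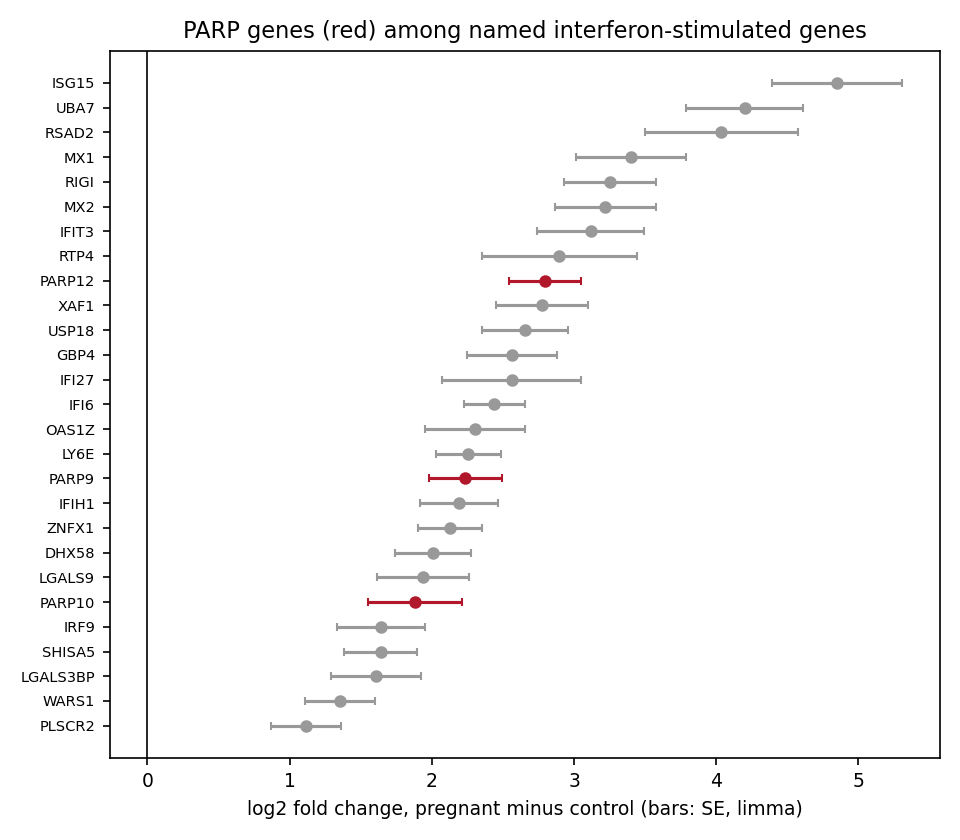
Log2 fold change, pregnant minus control, with its SE from limma, of PARP12, PARP9 and PARP10 (red) and 24 other named interferon-stimulated genes (grey), in order of size. PARP12 stands at 2.80 and PARP10 at 1.88, within a range from 1.11 for PLSCR2 to 4.85 for ISG15, and neighbours in the order overlap within their SE.

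Set against the mean log2 level of those 24 genes on the same array, PARP10 rose by less. This is not particular to PARP10, which stood at place 22 of the 27 genes, with PLSCR2 last at 1.11. The mean of the 24 was 2.36, 2.99, 3.15 and 2.43 in pregnant 316, 426, 447 and 448. It was 1.18 in control 427 and -0.23 to 0.06 in the other controls, so this animal stood above the other controls here too. The change of PARP10 relative to that mean was -0.71 (two-sided exact permutation p = 0.00476, adjusted p = 0.0143 over the 3 genes, a step added after the data were seen). PARP9 differed by -0.35 (adjusted p = 0.0643) and PARP12 by 0.21 (adjusted p = 0.186). With a floor at the 10th percentile PARP10 was at -0.52 and no longer passed (adjusted p = 0.05), while PARP12 at 0.37 passed (adjusted p = 0.0286). PARP9 passed without pregnant 316 (-0.47, adjusted p = 0.0357) and with a pseudocount (-0.38, adjusted p = 0.0429). PARP9 and PARP10 have 1 clone each, and the 5 clones of PARP12 differed in their change by up to 1.66. The permutation was over animals, so here too a difference of a gene cannot be told from that of its clone.

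Genes with the most similar course over the 10 animals were sought among the 85 other named genes, by the mean absolute difference of log2 levels after each gene was centred on its mean. Nearest to PARP12 were USP18, the protease that removes ISG15 (0.165), IFI6 (0.217) and NUPR1, a nuclear protein induced by stress (0.256), against a median of 0.674 over all. PARP9 was nearest to the helicase-like RNA sensor ZNFX1 (0.173), IFI6 (0.179) and the RIG-I-like receptor DHX58 (0.207), against 0.492. For PARP10 the locus LOC512869 (0.22), PARP9 (0.228) and ABI3BP, a matrix-associated protein (0.23), were nearest, against 0.505. USP18 rose by 2.66, ZNFX1 by 2.13 and LOC512869 by 1.87 on the log2 scale, beside 2.80, 2.24 and 1.88 for PARP12, PARP9 and PARP10. Centring on the mean over all 10 animals left the difference between the groups in place, so similar changes follow partly from the measure.

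Of 25 further symbols listed for genes of ADP-ribosylation, a few of them aliases of another, 0 had a named clone on either array. The list covers other transferases, the hydrolases that remove ADP-ribose and DTX3L. Of 16 trophoblast markers 3 had a name on the 18KB array (IFNT2, TKDP1 and TKDP4), with 0 of them at the floor. Their summed intensity was 1.44, 8.05, 4.30 and 41.7 in pregnant 316, 426, 447 and 448 and 0.955 to 1.79 in controls. Pregnant 316 lay within the control range of this sum and pregnant 448 had the highest. The part of these markers in the PARP values was not tested. Of 11 stroma markers the collagens COL1A1, COL1A2 and COL3A1 had names, with a summed intensity of 107 to 436 in pregnant animals and 622 to 1415 in controls, and their part was not tested either. No listed marker (0) of epithelium, smooth muscle, endothelium or leukocytes had a named clone on this array.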

How the data were processed

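Spot intensities of 10 RNA samples on the 18KB array were used. The intensities deposited by the authors are on a linear scale, from 0 to 685.73, and were made from arrays of spotted cDNA hybridised with phosphorus-33 labelled cDNA, per the labels. Their background subtraction and scaling are not given in the sources used here. The number of unmapped columns of per-sample values was 0. Readings under 0.01 were set to 0.01 before log2.

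Of 1536 clones 202 have 1 symbol in the platform's gene table, an old annotation, 9 have several and 1325 are unnamed here. The symbols of PARP9, PARP10 and PARP12 matched RefSeq (ARS-UCD2.0) by gene identifier in 3 of 3 cases. Clones of 1 gene were averaged on the log2 scale and fitted together with all other clones (1420 rows), and clones were also fitted singly, with limma 3.58.1 in R 4.3.3, Benjamini-Hochberg adjustment over each whole fit and calls at an adjusted p under 0.01 and at least 2-fold, after the false discovery rate and fold in the series design text. The fit was run on simulated data with independent noise for each clone and no shift between columns. That run therefore does not cover the scaling of the columns. Within-array differences were compared by two-sided exact permutation, with adjustment over the family stated.

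Genes were named by rule: the 3 PARP genes with all their clones, the 3 nearest profiles of each, and from each gene list up to 4 genes of smallest p. PLSCR2 was named after its value was seen. The genes, lists and tests were chosen with earlier results of these data known, so the calls that those results already showed are no independent support. Alternatives covered scaling, low values, dim clones, the joining of clones, the rows fitted, the prior, array weights, age, thresholds and leaving out each animal. The labels name each sample by its animal, and 1 RNA came from each. Figures were drawn with matplotlib 3.10.9.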

Additional observations from a re-analysis of the deposited data

Results flagged for a closer look

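In the PARP12 clone 18KB-07-D07, control 427 stood far from the other controls, at a log2 level of -0.38 against -1.47 for the next (intensities of 0.77 and 0.36). Its gap made up 0.629 of the range of the 6 controls. It was the only 1 of 16 groups examined to be so far apart, over 7 clones and the PARP12 mean in pregnant and control animals, and chance flags about 1 in 20 groups. The other 6 clones did not meet this criterion, although control 427 was the highest control in each.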

How the results depend on the processing

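The log2 fold changes of PARP9, PARP10 and PARP12 kept their direction and their call in 23 of 23 alternatives each, from 1.41 to 2.39, from 1.05 to 2.09 and from 1.97 to 3.51. The number of called genes among the 3 was 3, or 2 at a minimum of 4-fold, and that of called clones 5 to 7. Of the differences of change, that of PARP10 and PARP9 lost its call after quantile normalization (-0.35), with a pseudocount at the 5th percentile (-0.28) and with the median of clones (-0.36), the last by the adjustment alone, and ran from -0.46 to -0.29 without single animals. With the median of clones PARP12 minus PARP9 became -0.076, of opposite sign, and PARP12 minus PARP10 0.28. All rows called numbered 230, but 78 with named genes alone (fewer rows were fitted), 479 at an adjusted p under 0.05 with no minimum fold and 82 at 4-fold. No paired analysis was possible because pregnant and control animals share no number. Of the control values of clone 18KB-07-D07, 3 were below 0.32, the 10th percentile of all readings, where low signal limits its fold.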
